A study of Rattus norvegicus with 3 samples.

Results

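The 8 genes described here, Hmgcs1, Sqle, Insig1, Fdft1, Fdps, Idi1, Lss and Cyp51, belong to the cholesterol synthesis pathway, and were measured in the rat cerebellar cortex after stroke of the opposite or the same cerebral hemisphere. The group was chosen by name from this pathway, with a low median ratio to control of a longer cholesterol gene list already known from these same arrays. Their ratios are therefore given as a description, with no test. All 8 were found by accession among the 38973 gene entries on the arrays, through 12 probes and 39 spots. Of these entries, 16654 carried a gene symbol and the others an unmatched accession. Although the group is also known by cholesterol uptake, none of the 8 takes up cholesterol. 7 are enzymes of synthesis and Insig1 is a regulator, so genes of uptake are given separately from a list of their own.

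The arrays compared male Wistar rats aged 9 weeks. Rats underwent transient occlusion of the right middle cerebral artery (MCAO) or a sham operation, and tissue was taken 2 days later. The contralateral group is the left cerebellar cortex after MCAO, the ipsilateral group is the right cerebellar cortex after MCAO, and the control group is the left cerebellar cortex after the sham operation. Each group was 1 one-colour array of tissue combined from 4 rats, the sides of the MCAO group coming from the same 4 rats, and all 3 arrays were on 1 slide. With 1 array per group there was no replicate, no test was possible, and a ratio compares arrays, not the spread between rats. Both ratios to control share the control array, and the control has no right side.

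Cholesterol is built from acetyl-CoA through the mevalonate pathway, which leads to isoprenoid units, to squalene and then to the sterols. When membranes of the endoplasmic reticulum are low in sterol, the SREBP transcription factors are released from their escort complex and raise transcription of nearly every enzyme of the pathway, whereas the INSIG proteins hold the complex back when sterol is plentiful. The brain makes its own cholesterol because lipoproteins of the blood do not cross the blood-brain barrier, with oligodendrocytes using it for myelin and astrocytes supplying neurons.

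After MCAO, 6 of the 8 genes had lower signals than control on both sides of the cerebellum, by about the same amount on each. The median log2 ratio of the 8 to control was -0.38 contralaterally and -0.47 ipsilaterally, beside 0.01 and 0.03 for the 23272 genes detected on all arrays. Of these 23272, 11993 carried a gene symbol, and the shares of detected genes count the unmatched accessions as genes too. All 6 were lower by more than the scanner error on both sides, beside 17.1% of detected genes contralaterally and 14.6% ipsilaterally, and 1 gene, Idi1, was higher by more than that error, beside 15.3% and 21.9%, although this was no longer so for Idi1 on either side without scaling, nor ipsilaterally with scaling to the spike-in probes. The share of detected genes below 0 was 48.1% and 43.6%. A log2 ratio below -0.5 was found for 3 of the 8 on the contralateral side (Hmgcs1, Sqle and Cyp51) and for 4 of the 8 on the ipsilateral side (Lss in addition), beside 6.07% and 4.79% of detected genes. Without scaling of the arrays these counts were 5 and 7, and the ipsilateral median of the 8 was -1.001, where that of all detected genes was -0.50. None of the 8 was below -1, the threshold of 1 in the methods of the study, beside 1.05% and 0.872%, although on the ipsilateral side 4 of the 8 were without scaling and 1 was with scaling to the spike-in probes. Since the genes were selected on these arrays, nothing is read from the counts against these shares.

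Signals below are scaled so that the 75th percentile of the spots is the same on each array. Before scaling this percentile was 2103 in the contralateral, 1614 in the ipsilateral and 2336 in the control array, so the ipsilateral array was the dimmest. Of 58717 spots outside the controls of the array, 42470, 43028 and 43283 were well above background in that order. Each of the 12 probes of the 8 genes was well above background on all 3 arrays. The error beside each log2 ratio is the scanner error, derived from the uncertainty that the image software gives for each spot. It does not cover differences between rats or between labelling reactions.

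The early step of the pathway is catalysed by Hmgcs1, the cytosolic synthase that makes HMG-CoA. Its probe had 1 spot, with a scaled signal of 9884 in the contralateral, 9828 in the ipsilateral and 17225 in the control array. Both MCAO arrays were thus low and nearly equal, at 57.4% and 57.1% of control. The log2 ratio was -0.80 with an error of 0.20 on the contralateral side and -0.81 with an error of 0.20 on the ipsilateral side. This was the lowest ratio of the 8 genes in both comparisons, and 475 of the 23272 detected genes had a lower one on the contralateral side.

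Idi1 isomerises the first isoprenoid unit, and was the only member with signals above control by more than the scanner error. The probe A_44_P1083098 read 5359 in the contralateral, 5134 in the ipsilateral and 4182 in the control array. The probe A_64_P076638 read 7442, 7621 and 5906. In both probes the control was lowest, and the gene stood at 127.1% of control contralaterally and 125.9% ipsilaterally. The log2 ratios were 0.35 and 0.33 with an error of 0.20, although without scaling of the arrays they were 0.19, within that error, and -0.20. With scaling to the spike-in probes the ipsilateral value was 0.08, also within the error.

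Fdps joins isoprenoid units into farnesyl pyrophosphate, from which the sterol and the non-sterol branches of the pathway part. Over 10 spots of its probe the mean scaled signal was 1991 in the contralateral, 1987 in the ipsilateral and 2366 in the control array. The spots ran from 1864 to 2120 in the contralateral array and from 2265 to 2542 in the control array, and so did not overlap. The log2 ratio was -0.25 on either side with an error of 0.20, a small difference that lay just beyond the scanner error.

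Fdft1, squalene synthase, commits farnesyl pyrophosphate to sterols. Its single spot read 3419 in the contralateral, 3230 in the ipsilateral and 3174 in the control array. The log2 ratios of 0.11 and 0.03 were smaller than their error of 0.20, so that no difference from control was measurable on either side at the scaling used. On the ipsilateral side it was lower by more than the error without scaling, at -0.51, and with scaling to the spike-in probes, at -0.23.

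Sqle, squalene epoxidase, carries out the first oxygenation and is a control point of the pathway. Its probe had 10 spots, with a mean of 2077 in the contralateral, 2081 in the ipsilateral and 2976 in the control array. The highest contralateral spot read 2197 and the highest ipsilateral spot 2286, both below the lowest control spot at 2744. The log2 ratio was -0.52 on either side with an error of 0.20, or 69.8% and 69.9% of control. These are repeated spots of 1 labelled RNA, so they show the precision of the array and not that between animals.

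Lss, lanosterol synthase, closes the rings of the sterol skeleton. The probe A_44_P1164496 read 291.9 in the contralateral, 244.0 in the ipsilateral and 354.4 in the control array. The probe A_64_P126508 read 237.6, 215.1 and 334.2 in the same order. Both probes were highest in the control and lowest in the ipsilateral array, with a mean log2 ratio of -0.39 contralaterally and -0.59 ipsilaterally, each with an error of 0.20. With the normexp correction and its offset of 50 the ipsilateral value was -0.38, and with 50 added to the signal it was -0.498, so that Lss then left the count below -0.5. The side-to-side log2 ratio of 0.201 for Lss, contralateral to ipsilateral, was the widest of the 8 genes and lay just inside its error of 0.205.

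Cyp51, lanosterol 14-alpha-demethylase, starts the trimming of lanosterol towards cholesterol. Across 10 spots its probe A_42_P635007 averaged 3591 in the contralateral, 3622 in the ipsilateral and 5649 in the control array. The probe A_44_P1082289, with 1 spot, read 1905, 1874 and 3027 in that order. Control was high and both MCAO arrays low in each probe, and the gene stood at 63.2% of control contralaterally and 63.0% ipsilaterally. The log2 ratios were -0.66 and -0.67 with an error of 0.20.

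Insig1 is the sterol-dependent retention protein of the SREBP complex and is itself transcribed under SREBP control. The probe A_44_P1123636 read 4015 in the contralateral, 4019 in the ipsilateral and 5269 in the control array. The probe A_44_P143886 read 700.7, 656.9 and 895.5. Control was again highest in both probes, with gene log2 ratios of -0.37 and -0.42 and an error of 0.20.

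**Figure D1:**
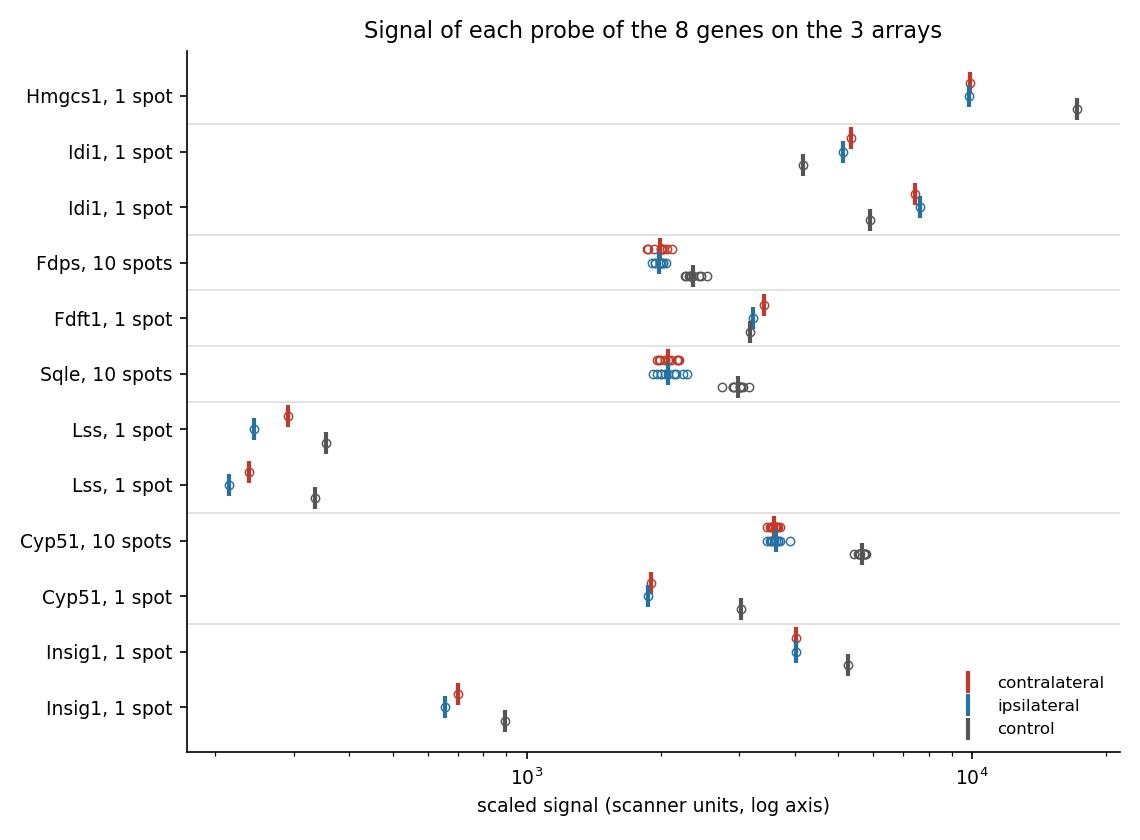
Scaled signal on a log axis for the 12 probes of the 8 genes, ordered by step in the pathway with Insig1 last; open circles are spots, vertical bars the mean of a probe, and colours the 3 arrays, each of 4 rats combined. The control bar lies to the right of both MCAO bars in every probe but those of Idi1 and Fdft1, and the Idi1 control bars lie at 4182 and 5906, to the left of both MCAO bars.

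In order of the contralateral ratio the genes ran Hmgcs1, Cyp51, Sqle, Lss, Insig1, Fdps, Fdft1 and Idi1. Of the 7 steps between neighbours in that order, 1 exceeded the combined scanner error, that from Fdps to Fdft1, which was 0.36 against an error of 0.29. On the ipsilateral side Lss came before Sqle, and again 1 of 7 steps exceeded the error, that from Fdft1 to Idi1 with 0.31 against 0.29. By this error the members therefore cannot be ranked finely, whereas the distance between Hmgcs1 and Idi1 spans several times the error. The error of a ratio was 0.20 for probes with 1 spot and with 10 alike. Repeated spots spread less, with a log2 standard deviation of 0.06 for Sqle and 0.03 for Cyp51 on the contralateral array.

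Between the sides of the MCAO group the 8 genes barely differed at the scaling used. The median log2 ratio of the contralateral to the ipsilateral array was 0.01, with a range from -0.003 for Sqle to 0.20 for Lss. None of the 8 was lower and none was higher by more than the scanner error, beside 16.9% and 6.44% of all detected genes. This count depended on the scaling. Without it all 8 were higher on the contralateral side, by 0.38 to 0.58, where the median of all detected genes was 0.37. With scaling to the spike-in probes Lss, Fdft1 and Insig1 exceeded the error, where that median was 0.16, and Lss alone did so with scaling to the median, quantile normalization, the deposited values or the brightest probe. The plot of both ratios shows the genes along the diagonal, which both axes favour because the same control array enters each ratio.

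**Figure D2:**
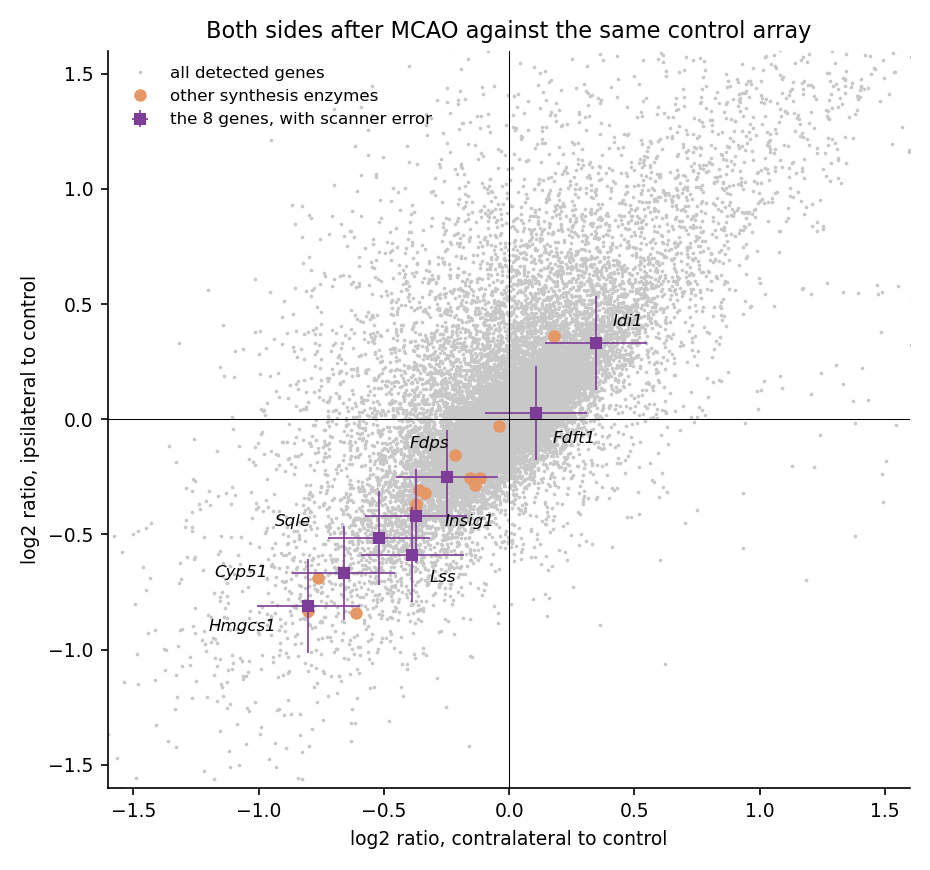
Log2 ratio to control on the contralateral side (horizontal) against the ipsilateral side (vertical) for all 23272 detected genes (grey, 258 lie outside the axes), the other synthesis enzymes (orange) and the 8 genes (purple, with scanner error). 6 of the 8 genes lie in the lower left, Idi1 in the upper right at 0.35 and 0.33 (the latter -0.20 without scaling), and Fdft1 within its error of 0.

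The promoters of 3 members are shown because Hmgcs1 and Cyp51 had the lowest ratios and Idi1 the highest. The sequences are those of RefSeq on the build GRCr8, from 250 bases before to 50 bases after the start of the gene, and 6 of the 8 genes matched the table; Sqle and Fdft1 did not. Capitals mark CCAAT, the box bound by NF-Y, on either strand, so that it also reads ATTGG.
Hmgcs1, chr2:53382054-53382353, + strand: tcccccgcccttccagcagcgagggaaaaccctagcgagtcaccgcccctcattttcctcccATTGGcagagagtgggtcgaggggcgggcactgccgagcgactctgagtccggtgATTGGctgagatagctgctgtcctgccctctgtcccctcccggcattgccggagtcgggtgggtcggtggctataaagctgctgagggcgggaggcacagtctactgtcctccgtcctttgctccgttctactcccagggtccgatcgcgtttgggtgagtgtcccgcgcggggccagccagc
Cyp51, chr4:30991443-30991742, + strand: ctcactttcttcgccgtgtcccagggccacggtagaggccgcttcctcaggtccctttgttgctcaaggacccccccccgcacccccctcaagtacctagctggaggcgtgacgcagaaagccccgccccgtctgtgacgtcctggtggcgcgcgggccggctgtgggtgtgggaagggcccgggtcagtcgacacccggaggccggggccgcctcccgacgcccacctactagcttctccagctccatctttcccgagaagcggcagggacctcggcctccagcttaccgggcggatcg
Idi1, chr17:66547475-66547774, - strand: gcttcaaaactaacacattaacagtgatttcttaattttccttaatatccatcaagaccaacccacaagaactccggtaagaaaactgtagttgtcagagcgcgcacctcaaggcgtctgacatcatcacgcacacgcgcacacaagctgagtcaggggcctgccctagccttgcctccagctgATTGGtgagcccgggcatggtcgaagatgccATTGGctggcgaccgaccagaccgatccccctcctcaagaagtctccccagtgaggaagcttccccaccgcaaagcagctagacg

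Counted from the start of the gene, the CCAAT boxes of Hmgcs1 began at -188 and -133 and those of Idi1 at -66 and -35, while Cyp51 held none in this window. All motifs were searched on both strands. CCAAT was present in 5 of the 6 promoters, namely Hmgcs1, Insig1, Fdps, Idi1 and Lss, and in 37.5% of all 33469 promoters of the same length. The GC box GGGCGG, a form bound by Sp1, was present in 5 of the 6, all but Idi1, and in 33.1% of all promoters. The E-box CACGTG was found in Insig1 alone, against 6.42% of all. The sterol regulatory element in its form TCACCCCAC was in none of the 6 and in 0.484% of all promoters. Its looser form TCACNCCAN, which includes the former, was also in none of the 6 and in 3.88% of all. The share of G and C in these promoters ran from 53.7% in Idi1 to 71.3% in Insig1, with a median of 51.7% over all promoters. Thus Hmgcs1, Cyp51 and Idi1 differed in which letters they held, and a match or its absence in this window is a description of the sequence only.

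The other enzymes of the pathway came from a list of 14, of which 13 were matched and detected and Lbr was not matched. Their median log2 ratio was -0.34 contralaterally and -0.31 ipsilaterally, beside 0.01 and 0.03 for all detected genes. 12 of the 13 were below 0 on either side, beside 48.1% and 43.6% of detected genes. Dhcr7, which reduces the last double bond of the sterol rings in one route to cholesterol, had log2 ratios of -0.80 and -0.83 with an error of 0.20. Tm7sf2, a sterol reductase that acts just after Cyp51, had -0.76 and -0.69 with an error of 0.20.

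Msmo1, which removes methyl groups of the sterol after Cyp51, had log2 ratios of -0.37 and -0.37 over 10 spots. Acat2, the thiolase at the entry of the pathway, had -0.36 and -0.31 over 4 probes. The mevalonate kinases and decarboxylase came next, with Mvd at -0.34 and -0.32, Pmvk at -0.15 and -0.26 and Mvk at -0.12 and -0.25. Of the later enzymes, Nsdhl had -0.22 and -0.16, Sc5d -0.14 and -0.29, and Ebp -0.04 and -0.03. Hsd17b7, a sterol ketoreductase, was the 1 enzyme of this list above 0, with 0.18 on the contralateral side, within its error of 0.23, and 0.36 on the ipsilateral side, which was -0.17 without scaling.

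**Figure D3:**
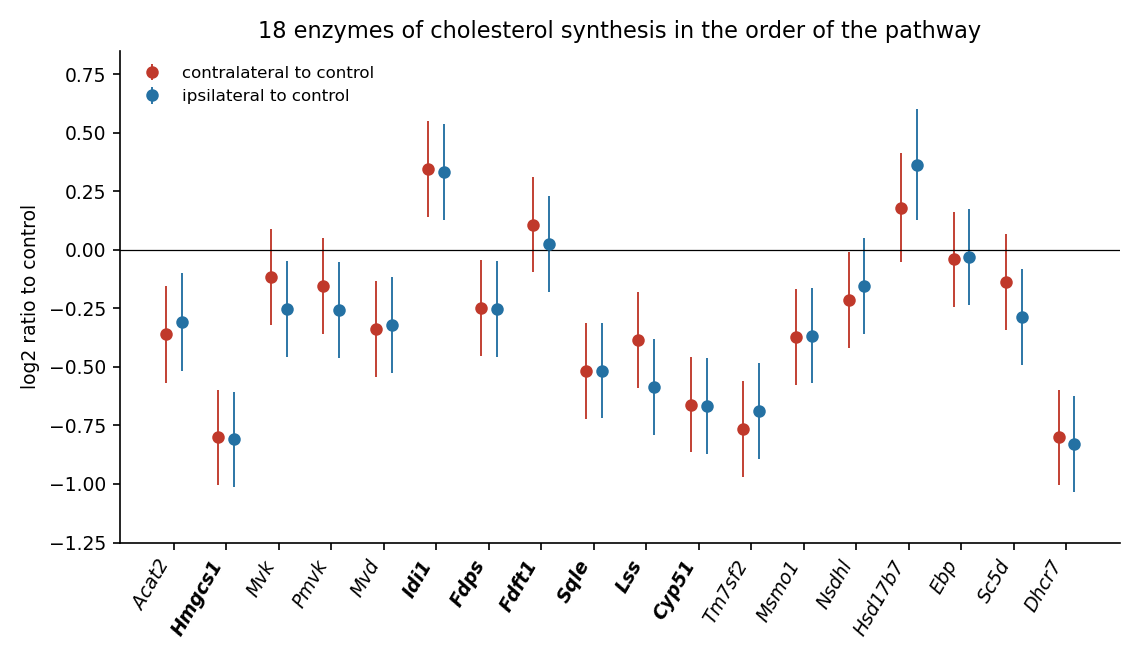
Log2 ratio to control of 18 synthesis enzymes in the order of the pathway from left to right, with the 7 enzymes among the 8 genes in bold; circles are the contralateral and ipsilateral ratios and bars the scanner error. Low ratios stand at the entry (Hmgcs1, -0.80) and towards the end (Dhcr7, -0.80), with Idi1 at 0.35 and Fdft1 at 0.11 in the middle.

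Together with the 8 genes, 21 synthesis genes were detected, of which 18 were below 0 contralaterally and 18 ipsilaterally, beside 48.1% and 43.6% of detected genes. 14 were lower by more than the scanner error contralaterally and 16 ipsilaterally, beside 17.1% and 14.6% of detected genes, and 1 and 2 were higher, beside 15.3% and 21.9%. Between the sides none of the 21 differed by more than the scanner error at the scaling used, whereas 20 of them did without scaling and 7 with scaling to the spike-in probes.

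The regulators of SREBP stood nearer to 0. In a list of 12, the 10 detected had a median log2 ratio of -0.04 contralaterally and -0.07 ipsilaterally. On either side 0 of 10 were below -0.5, beside 6.07% and 4.79% of detected genes. Srebf2, which encodes the SREBP most tied to cholesterol synthesis, read 3529 in the contralateral, 3564 in the ipsilateral and 3857 in the control array, with log2 ratios of -0.13 and -0.11 inside their error of 0.20. Srebf1, more tied to fatty acid synthesis, had -0.07 and 0.02, and its escort Scap had -0.01 and -0.08. Insig2, the relative of Insig1, had 0.09 and -0.05. Messenger levels of these genes do not show how much of the factor was cleaved or in the nucleus.

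The proteases that cleave SREBP gave -0.07 and -0.21 for Mbtps1 and -0.30 and -0.23 for the dim Mbtps2, which turned to 0.06 and 0.24 with the normexp correction and its offset of 50. Stard4, a sterol carrier whose gene is an SREBP target, had -0.23 and -0.29 with an error of 0.23. Mylip, a ubiquitin ligase, had 0.07 and -0.05, while Rnf139 had 0.04 and -0.06 and Ubxn8 had 0.05 and 0.03. On either side 2 of the 10 were lower by more than the scanner error, a share near the 17.1% and 14.6% of all detected genes, Mbtps2 and Stard4 on the contralateral and Mbtps1 and Stard4 on the ipsilateral side.

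Of 12 uptake and transport genes, 11 were detected and Lrp8 was not matched. Their median was -0.07 contralaterally and -0.08 ipsilaterally. Vldlr, a lipoprotein receptor, had -0.07 and -0.32, Lrp1 had 0.08 and -0.08, and Scarb1, which takes up cholesterol esters, had -0.19 and -0.16. The lysosomal export proteins were at 0.06 and 0.04 for Npc1 and -0.21 and -0.06 for Npc2, and the lysosomal lipase Lipa was at 0.09 and -0.04. Lrpap1 had -0.02 and 0.08, Stard3 -0.08 and -0.08 and Osbp 0.10 and 0.03. The genes named here thus ran from -0.32 to 0.10, but some detected genes of the list are not reported here. Over all 11, 1 was below -0.5 on either side, beside 6.07% and 4.79% of detected genes. Lower by more than the scanner error were 2 contralaterally and 3 ipsilaterally, beside 17.1% and 14.6%. On either side 0 were higher by more than that error, beside 15.3% and 21.9%.

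Among genes of cholesterol efflux and turnover, 8 of 10 detected were above 0 contralaterally and 7 of 10 ipsilaterally, beside 51.9% and 56.4% of all detected genes. The 10, from a list of 13, had a median of 0.26 contralaterally and 0.23 ipsilaterally, with 6 of 10 higher by more than the scanner error in each comparison, beside 15.3% and 21.9% of detected genes. The ipsilateral median was -0.31 without scaling and -0.03 with scaling to the spike-in probes. It stayed above that of all detected genes, by 0.09 to 0.20, in the 11 settings run. Settings that change only a single factor per array could not alter this difference. Lcat, which esterifies cholesterol on lipoproteins, had the highest contralateral ratio at 0.51, with 0.32 on the ipsilateral side. Apoe, the main apolipoprotein of the brain, had 0.05 and 0.06 over 10 spots. Nr1h2, a receptor that senses oxysterols, had -0.07 and -0.04.

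Among 12 detected fatty acid genes, many of them SREBP targets, the median was -0.19 contralaterally and -0.20 ipsilaterally, and 11 of 12 were below 0 on either side, beside 48.1% and 43.6% of detected genes. Scd, a desaturase, had -1.03 and -0.83, Me1 had -0.23 and -0.12, and Acss2 had 0.11 and 0.07. The 10 detected genes of the isoprenoid branches that leave the pathway after Fdps had medians of -0.005 and -0.09. Ggps1, which lengthens the product of Fdps, had 0.21 and 0.11, and Rabggtb had 0.03 and 0.003. Pggt1b had -0.45 and -0.42, but its 3 probes disagreed, running from -1.32 to -0.01 contralaterally and from -1.08 to -0.06 ipsilaterally, and the brightest of them gave -0.02 contralaterally.

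**Figure D4:**
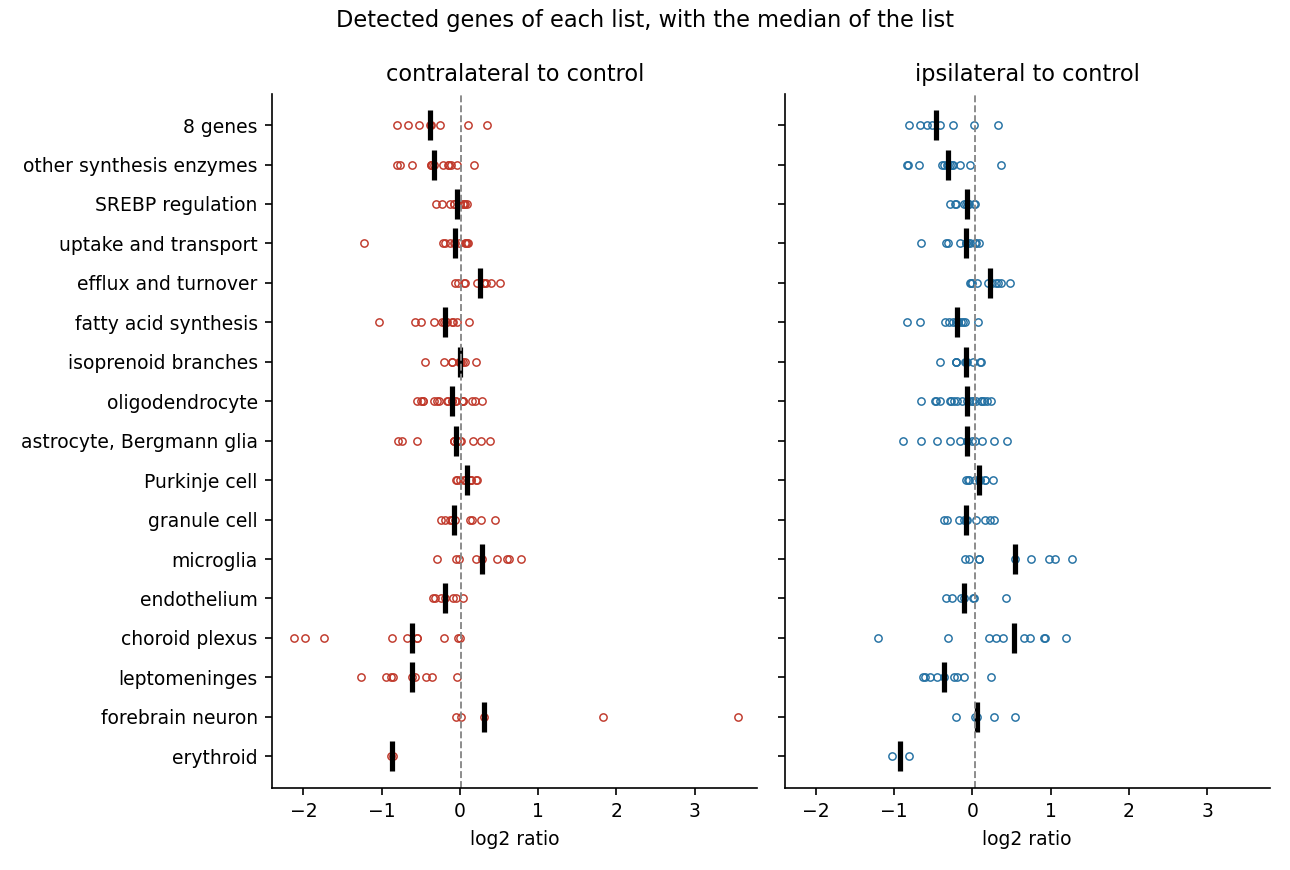
Log2 ratio to control of every detected gene of 17 lists, on the contralateral (left) and ipsilateral (right) side; circles are genes, black bars list medians and the dashed line the median of all detected genes. The bars of the 8 genes (-0.38 and -0.47) and of the other synthesis enzymes (-0.34 and -0.31) lie left of the dashed line, and those of SREBP regulation and uptake near it.

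The tissue label was checked against cerebellar markers. All 10 granule cell and all 10 Purkinje cell markers were well above background on each array, with median log2 ratios of -0.08 and -0.08 for granule cells and 0.10 and 0.09 for Purkinje cells. The summed granule signal was 90769 in the contralateral, 89552 in the ipsilateral and 91235 in the control array, and the brightest gene Cbln1 had -0.10 and -0.08. Slc17a7 had the lowest contralateral ratio at -0.25 and Zic2 the highest at 0.45. The summed Purkinje signal was 225511, 224318 and 205591, with the brightest gene Itpr1 at 0.22 and 0.16 and Slc1a6 at -0.06 and -0.08. In tissue of mixed cells, fewer cells of a type and less RNA per cell cannot be told apart.

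Markers of the cells that make most sterol in the brain were examined beside the 8 genes. All 19 oligodendrocyte markers were detected, with a summed signal of 65027 in the contralateral, 66448 in the ipsilateral and 70965 in the control array. Their median log2 ratio was -0.11 and -0.07, and 7 of 19 were lower by more than the scanner error on either side, beside 17.1% and 14.6% of detected genes. Ugt8, an enzyme of myelin lipid synthesis, had the lowest contralateral ratio at -0.55 with -0.66 on the ipsilateral side, and Mobp the highest at 0.28, with 0.24 ipsilaterally.

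All 12 markers of astrocytes and Bergmann glia were detected, with medians of -0.05 and -0.07 and summed signals of 342903, 371004 and 313934, most of it from Aldoc with 0.27 and 0.44. Fabp7, a fatty acid binding protein of glia, had -0.80 and -0.89 and Gdf10, a Bergmann glia gene, had 0.39 and 0.27. Gfap and Aqp4, singled out after their values were seen, had -0.73 and -0.66, and -0.55 and -0.45. In all, 3 of the 12 were lower by more than the scanner error contralaterally and 4 ipsilaterally, beside 17.1% and 14.6% of detected genes, and 2 were higher on either side, beside 15.3% and 21.9%. Fabp7, Gfap and Aqp4 thus had low ratios on both sides, as most of the 8 genes did, while the list medians lay near 0. Their part in the ratios of the 8 genes was not tested.

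Other markers differed between the arrays as well. Leptomeningeal genes had medians of -0.61 and -0.37 over 9 of 9, with 8 of 9 lower by more than the scanner error contralaterally and 6 of 9 ipsilaterally, beside 17.1% and 14.6% of detected genes, and summed signals of 8346, 11060 and 14388. Their brightest gene Col1a2 had -0.85 and -0.37, Col1a1 had the lowest contralateral ratio at -1.26 and Dcn the highest at -0.03, with 0.23 ipsilaterally, beyond its error of 0.20. Of 5 erythroid genes, 2 were detected, with a summed signal of 1136, 1030 and 2094, Hba-a1 being the brighter at -0.88 and -1.03 and Hba-a2 having -0.85 and -0.82. Hbb, Alas2 and Slc4a1 were not well above background on every array.

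Microglial genes had medians of 0.28 and 0.54 over 9 of 9, the latter being 0.0066 without scaling, and summed signals of 13596, 17152 and 9863. On either side 5 of 9 were higher by more than the scanner error, beside 15.3% and 21.9% of detected genes. Below 0 were 3 of 9 contralaterally and 2 of 9 ipsilaterally, beside 48.1% and 43.6% of detected genes. The brightest was C1qb with 0.62 and 0.98, while Cx3cr1 had 0.78 and 1.27 and Aif1 had -0.29 and -0.10. Endothelial genes had medians of -0.19 and -0.10 over 7 of 7, with summed signals of 3762, 3900 and 4398, Cldn5 at -0.19 and -0.14, Tek at -0.35 and -0.34 and Flt1 at 0.04 and 0.02.

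The choroid plexus list, 10 of 13 detected with Kl, Prlr and Cldn2 not, had medians of -0.61 contralaterally and 0.53 ipsilaterally (-0.007 without scaling) and summed signals of 11015, 77356 and 34436. Of 10 forebrain neuron genes, 5 were detected, with summed signals of 3739, 2860 and 2759, and Cck had 3.56 contralaterally and 0.28 ipsilaterally. Nrgn, singled out after its values were seen, had 1.83 and -0.21. Of the summed signals of the forebrain list, the brightest gene Neurod2 gave 1588, 1611 and 1569. Its ratios were 0.02 and 0.04, and Neurod6 had -0.05 and 0.06. The choroid plexus list, Cck and Nrgn thus differed between the sides of the MCAO group, whereas the 8 genes did not beyond the scanner error at the scaling used. The part of all these markers in the ratios of the 8 genes was not tested.

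The genes outside these lists with the pair of ratios nearest to the medians of the 8, among 4056 named genes with at least 2 probes or 2 spots, were Vps52, Lats1, Dclk1, Cd46 and Tspan17. Likeness was measured as the Euclidean distance over the 2 log2 ratios to control, and so over 3 arrays. The nearest, Vps52, had -0.37 and -0.48 at a distance of 0.02, and the fifth, Tspan17, had -0.38 and -0.43 at a distance of 0.04. In all, 40 of the 4056 genes lay within a distance of 0.1 of the pair of medians. The 8 genes themselves spread more widely around these medians, from Hmgcs1 at -0.80 and -0.81 to Idi1 at 0.35 and 0.33.

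The processing moved the level of all ratios on an array more than it moved the 8 genes against the rest. Relative to the median of all detected genes, the median of the 8 ran from -0.40 to -0.35 contralaterally and from -0.54 to -0.47 ipsilaterally over 11 settings. Hmgcs1 ran from -0.89 to -0.81 and from -1.02 to -0.83. Idi1 stayed above that median, by 0.27 to 0.34 and by 0.19 to 0.34. Fdft1 ran from -0.12 to 0.001 on the ipsilateral side and held no direction there. The ipsilateral values above 0 of Lcat, Mobp, Aldoc, Gdf10, Zic2, Itpr1, Ggps1, Dcn and Cck and of the Purkinje median were below 0 without scaling, the setting that put the median of all detected genes lowest.

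**Figure D5:**
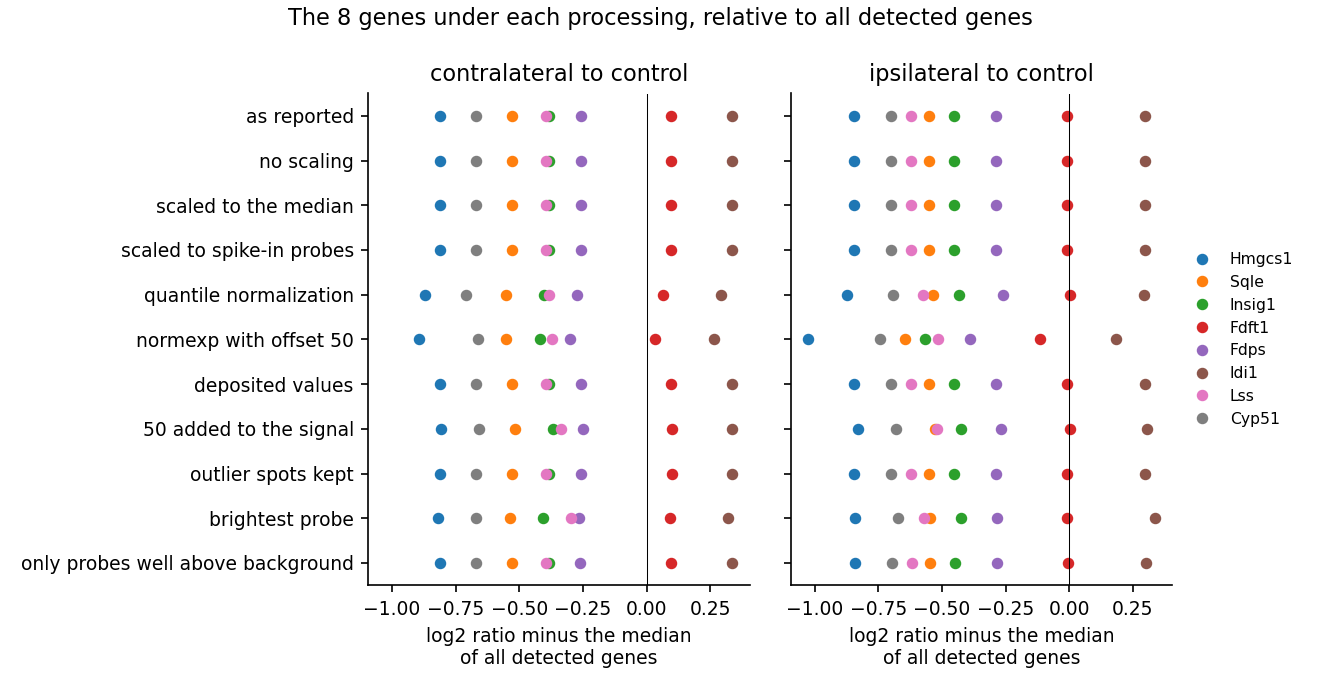
Log2 ratio of each of the 8 genes minus the median of all detected genes, under the processing reported and the 10 alternatives (rows), on the contralateral (left) and ipsilateral (right) side. Each colour is a gene. Hmgcs1 lies between -1.02 and -0.81 throughout, 5 further genes lie below 0 and Idi1 above 0 in every row. Fdft1 lies around 0 on the ipsilateral side. Rows that change only a single factor per array repeat the reported row by construction.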

How the data were processed

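RNA was labelled with Cy3 and hybridised to 1 Agilent SurePrint G3 Rat array per group, and the deposited spot intensity values are the background-subtracted processed signals that the authors obtained with Agilent Feature Extraction 12.1.0.3, with no scaling between arrays. From these, log2 values were shifted to a common 75th percentile over 58717 spots, and the 759 spots that any array had flagged as outliers were dropped. Spots were averaged per probe and probes per gene. Accessions were named through the RefSeq table of GRCr8, which matched 17622 of 39957. The others kept their accession and each counted as a gene. A gene was detected when at least 1 of its probes was well above background on each array. A ratio is a difference of log2 values, its scanner error combines the spot errors of both arrays, and averaging does not reduce it. The 8 genes, 16 further lists and the rule for named genes were chosen with earlier results of these data known. Named with values were the detected genes of the synthesis, SREBP and uptake lists, and of each other list the brightest gene and those with the highest and lowest contralateral ratio; some of these genes count in their lists but are not reported here. Gfap, Aqp4, Nrgn and Clic6 were named outside this rule, after their values were seen. The 10 alternatives covered scaling, background, pseudocount, outliers, probes and the deposited value table, whose values are the processed signals times 1.12, 1.45 and 1.04 with medians of 139.4, 139.6 and 146.9; the methods of the study name a normalisation to control samples of the chip, and how the factors were set from them is not given in the sources used here. The work was done in Python 3.11.15, with limma 3.58.1 (R 4.3.3) for the normexp correction, and the steps were tested on simulated data. The simulated shifts were larger than the ratios of the 8 genes, so recovery of differences of their size was not tested.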

Additional observations from a re-analysis of the deposited data

Results flagged for a closer look

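The choroid plexus median and Ttr stood in opposite directions on the sides of the MCAO group. The median of the list differed by -1.14 on the log2 scale between the contralateral ratio (-0.61) and the ipsilateral ratio (0.53, and -0.007 without scaling). Ttr, the transport protein made by this epithelium and the brightest gene of the list, differed by -2.93, from -1.73 to 1.19. Of the 10 detected genes, 2 were below 0 on both sides, Slc4a5 with -2.12 and -1.20 and Clic6, named after its values were seen, with -0.55 and -0.31, the latter within its error of 0.37. With the normexp correction and its offset of 50, Slc4a5 had -0.55 and -0.16 and Clic6 had -0.056 and 0.27. Calml4 had -0.003 and 0.74. Both differences rest on 1 array per side and were not tested. None of the 8 cholesterol genes differed in direction between the sides by more than the scanner error at the scaling used.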

How the results depend on the processing

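Of 2190 values recomputed for 219 results under 10 alternatives, 1927 moved by less than the scanner error or by less than 1.5 times for counts. The medians of the 8 genes and of the other synthesis enzymes stayed below 0 in both comparisons to control. Without scaling, the median of all detected genes was -0.14 contralaterally and -0.50 ipsilaterally, and 0.37 between the sides. The median of the 8 then was -1.001 and that of the other enzymes -0.84 on the ipsilateral side, with 0.39 and 0.38 between the sides, and 5 and 7 of the 8 genes were below -0.5, with 4 below -1 ipsilaterally. Scaling to 8 spike-in probes put all detected genes at -0.22 on the ipsilateral side, the 8 at -0.72 and the other enzymes at -0.56, and between the sides all detected genes at 0.16. Among values beyond their error, the ipsilateral ratios that changed sign without scaling were those of Idi1 (-0.20), Hsd17b7 (-0.17), Lcat (-0.21), Mobp (-0.30), Aldoc (-0.091), Gdf10 (-0.26), Zic2 (-0.26), Dcn (-0.30), Cck (-0.26) and the medians of the efflux (-0.31) and choroid plexus (-0.007) lists, and the side-to-side medians of microglia (0.10) and leptomeninges (0.066) changed sign too. A further 16 ipsilateral values within their error of 0 also changed sign, among them the Purkinje median (-0.45). With spike-in scaling a change of sign beyond the error held for efflux (-0.027), Mobp (-0.018) and Dcn (-0.022). With the normexp background correction and an offset of 50, where all detected genes stood at 0.14 on the ipsilateral side, ipsilateral values of dim genes turned positive, such as Pggt1b (0.046), as did both values of Mbtps2 (0.064 and 0.24). The cause was not tested.

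With normexp and its offset, dim genes such as Mbtps2 moved by more than the scanner error, as did the ipsilateral value of Lss (-0.38) among the 8 genes; the part of signal over background in this was not tested. No paired analysis was possible because each group holds 1 array. The threshold-based counts rest on a few genes near the threshold, so Sqle, at -0.52, counts or not with small shifts. 1 array of 4 rats combined per group, a control of the left side only and members picked from known results leave no estimate of the spread between animals.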
